A study of Homo sapiens with 12 samples.

Results

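The genes described here are those whose response to Delta-like ligand 4 (DLL4) was compared between NOTCH1-targeted and control human aortic endothelial cells, and in particular the 118 of 13299 tested genes in which the responses differed. The quantity is a difference of differences on the log2(TPM + 1) scale, the change on DLL4 against IgG in NOTCH1-targeted cells minus the same change in control cells. It is called the difference below, and a negative difference means a change less positive, or more negative, in NOTCH1-targeted cells. TPM is transcript abundance per length, scaled to a common total in each library. All 13299 genes with at least 1 TPM in at least 2 of the 12 libraries were members, of 35587 symbols in the table. Called genes have a limma adjusted p under 0.05, with Benjamini-Hochberg adjustment over all 13299.

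The cells were TeloHAEC, a telomerase-immortalised line of aortic endothelial cells, cultured at matched passage. Plates carried a 2.5 mg/mL coat of DLL4 or of IgG as its control, and RNA was taken 24 h later. Cas9 and a guide RNA against NOTCH1 made the NKO line, and the control line, NT, is labelled wild type, with no guide given for it. 8 of the 12 libraries enter the difference, 2 in each of 4 groups: NKO cells on DLL4, NKO cells on IgG, NT cells on DLL4 and NT cells on IgG. The other 4 are of TKO, a line in which TSPAN14 was targeted, on the same coatings. They share the estimate of the spread and are described last. Each genotype is 1 line, so an effect of the targeted gene cannot be told apart from any other difference between the lines. Replicates are labelled biological with no more on their source, so p-values measure the spread between these libraries.

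Notch receptors are cut by proteases when a ligand on a surface or a neighbouring cell pulls on them, and the freed intracellular part joins the DNA-binding protein RBPJ in the nucleus and switches on transcription. DLL4 and NOTCH1 are the pair through which endothelial cells in developing vessels hold back sprouting tip cells, take on arterial features and slow their division. HES and HEY repressors, ephrin-B2 and DLL4 itself are classical targets in these cells, and endothelial cells also carry NOTCH4, a second receptor.

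NOTCH1 transcripts were still present in the targeted line. In NKO cells NOTCH1 was at 16.5 and 19.5 TPM on DLL4 and 19.2 and 15.6 on IgG, against 31.5 and 24.7 on DLL4 and 17.8 and 19.6 on IgG in NT cells. The difference of -0.50 ± 0.23 (SE) did not pass the test (limma adjusted p = 0.39), and TPM do not show the protein or the edit. The libraries of each group correlated at a Pearson's r of 0.9879 to 0.9914 on the log2(TPM + 1) scale. TPM hold no read numbers, so the depth of the libraries is unknown. In such bulk samples fewer cells that express a gene and less RNA per cell cannot be told apart. All 8 endothelial markers, among them PECAM1, CDH5 and VWF, were at 1 TPM or more in all 8 libraries, with a summed level of 1066 to 1185 TPM on DLL4 and 1113 to 1174 on IgG in NKO cells, against 1259 to 1412 and 960.9 to 1053 in NT cells. Of 8 smooth muscle markers 2 were at 1 TPM or more throughout and DES was at 0, with sums of 90.49 to 121.4 TPM. No fibroblast marker and no leukocyte marker of 8 each was at 1 TPM in every library, with sums of 1.976 to 3.716 and 0.7663 to 2.041 TPM. The epithelial list reached 724.2 to 1345 TPM through KRT8, KRT18 and KRT19, with KRT14 and KRT5 at 0. The pseudogene KPNA2P2 took between 0.28% and 5.61% of a library's TPM.

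NKO cells answered DLL4 with smaller changes than NT cells in most genes that differed, and the Notch target and cell cycle inhibitor genes among them, and 8 of the 9 arterial genes, were induced less. BMX, the other arterial gene, had a positive difference. Of the 13299 genes, 118 (0.887%) were called in the difference, 76 (0.571%) more negative and 42 (0.316%) more positive in NKO cells. For setting beside these, DLL4 against IgG was called for 104 genes (0.782%) in NKO cells and 2130 (16.0%) in NT cells, and NKO against NT was called for 2758 genes (20.7%) on DLL4 and 1418 (10.7%) on IgG. The size of the called differences ran between 0.5847 and 3.171, and 73 were at least 1. The size of the change was smaller in NKO than in NT cells in 113 of the 118, against 68.16% of all tested genes. The median difference over all tested genes was -0.0035. Of the called genes 108 are protein coding, and 8, among them EFNB2, GJA4, SEMA3G and COLEC10, were below 1 TPM in all 4 NKO libraries.

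The 2 libraries per group set the limit. Without 1 of the 8 libraries the count was between 31 (NT DLL4 2) and 72 (NKO IgG 2), and it was 34 without NKO DLL4 1, 64 without NKO DLL4 2, 46 without NT DLL4 3, 60 without NKO IgG 1, 45 without NT IgG 2 and 47 without NT IgG 3. Libraries are numbered here as in the table, NKO 1 and 2 and NT 2 and 3. Of the 118 genes 26 were called in all 8 of these fits and 31 in none, and 44 had an adjusted p of 0.04 or more, while 8 genes just outside were at 0.05 to 0.06. Of the 56 called genes that the naming rule gave, 31 lost the call when no genes were filtered out and 16 with a pseudocount of 0.1. An exact permutation test of 2 against 2 libraries cannot go below 0.333 for a single gene.

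A smaller change can come about in 2 ways, from an equal level on IgG and an unequal one on DLL4, or from levels that already differ on IgG. To separate these, called genes were put in 3 classes by the line difference on IgG, NKO minus NT. In the response class, 66 genes, that line difference was not called and was at most 50% of the size of the difference of responses. In the start class, 29 genes, it was called, over 50% of that size and of opposite sign. The remaining 23 genes form the mixed class. Because the IgG libraries enter both quantities with opposite sign, an error in them moves a gene towards the start class, and class sizes are a description with no test. By size alone, without asking for a call on IgG, the classes held 75, 29 and 14 genes.

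In the 44 response-class genes with a negative difference, the median change on DLL4 was 0.41 in NKO and 1.84 in NT cells, and the median line difference was -1.25 on DLL4 and 0.05 on IgG. In the 22 with a positive difference the median change was -0.29 in NKO and -1.32 in NT cells, with median line differences of 0.91 on DLL4 and 0.10 on IgG. In the start class, the 15 genes with a negative difference had a median line difference of 0.00 on DLL4 and 1.10 on IgG. The 14 with a positive difference had 0.02 on DLL4 and -1.39 on IgG. Over all tested genes, the median line difference was 0.06 on both coatings. Of the 29 start-class genes 21 were not called between the lines on DLL4. The rule for the class favours this, since the line difference on DLL4 is the sum of the other 2 quantities. For the same reason the rule for the response class favours small line differences on IgG and larger ones on DLL4.

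**Figure D1:**
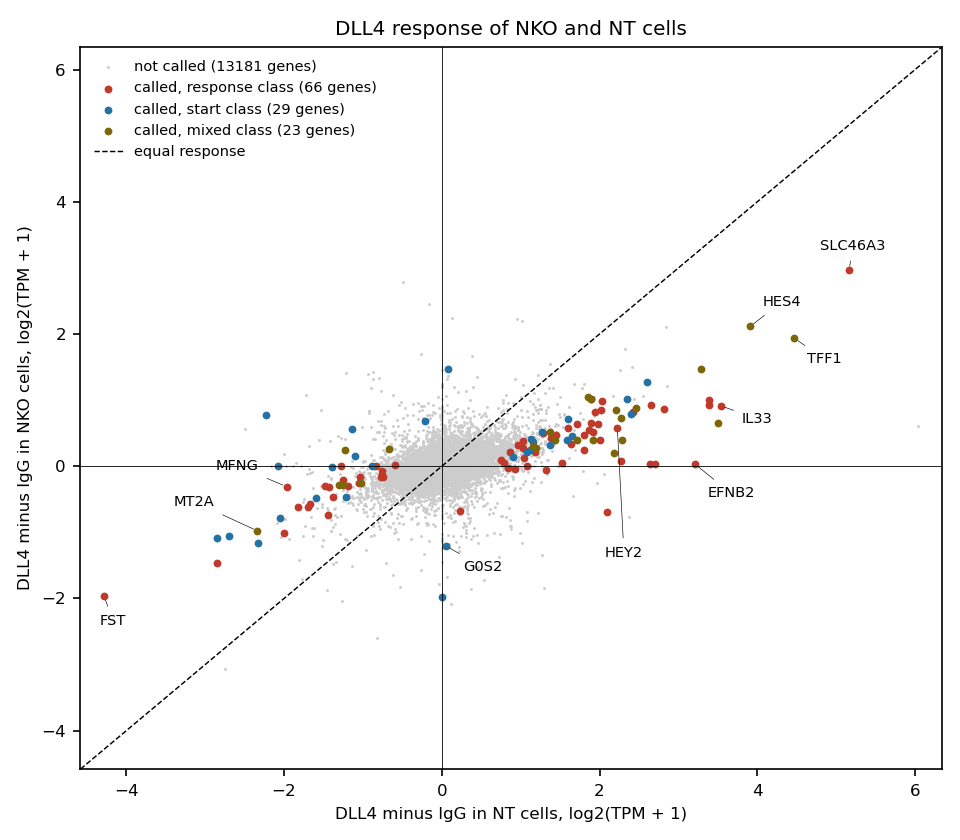
Change on DLL4 against IgG in NT cells (horizontal) and in NKO cells (vertical), in log2(TPM + 1), for 13299 genes; grey points were not called in the difference, coloured points were, by class, and the dashed line marks equal responses. Most coloured points lie between the dashed line and the horizontal axis, as for SLC46A3 and FST, and some, such as EFNB2, lie on the axis.

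The arterial and Notch target genes of the response class rose on DLL4 in NT cells, and in NKO cells they either rose less or had a change that was not called. EFNB2, which encodes the arterial ligand ephrin-B2 (chromosome 13, 106489731 to 106535662, minus strand, GRCh38), had the largest difference of the called genes. In NKO cells EFNB2 was at 0.0158 and 0.131 TPM on DLL4 and 0.0262 and 0.066 on IgG, against 11.8 and 10.4 on DLL4 and 0.274 and 0.344 on IgG in NT cells. All 6 other libraries were below 1 TPM, and the 2 NT libraries on DLL4 stood apart. On IgG both NKO libraries were also below both NT libraries. At such levels the log2(TPM + 1) scale shows little of a line difference, so an equal start cannot be read from its class. The change on DLL4 was 0.04 in NKO and 3.21 in NT cells, a difference of -3.17 ± 0.27 (limma adjusted p = 0.0004).

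DLL4, the gene of the ligand (chromosome 15, 40929333 to 40939073, plus strand), was induced in both lines and less so in NKO cells. In NKO cells DLL4 was at 9.75 and 11.9 TPM on DLL4 and 5.33 and 5.63 on IgG, against 45.6 and 40.7 on DLL4 and 5.09 and 5.41 on IgG in NT cells. Levels overlapped between the lines on IgG and did not on DLL4. The change on DLL4 was 1.82-fold in NKO and 7.06-fold in NT cells on the TPM + 1 scale, with a difference of -1.95 ± 0.18 (limma adjusted p = 0.00084). HEY2, a repressor of the HEY family (chromosome 6, 125747664 to 125761269, plus strand), showed the same order. In NKO cells HEY2 was at 23.2 and 21.1 TPM on DLL4 and 15.6 and 13.4 on IgG, against 58.1 and 54.8 on DLL4 and 11.1 and 11.5 on IgG in NT cells. Its change was 0.58 in NKO and 2.23 in NT cells, a difference of -1.65 ± 0.15 (limma adjusted p = 0.00084), and the line difference on IgG, 0.34, was not called (adjusted p = 0.079).

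2 further arterial genes were at or near 0 in NKO cells on either coating. GJA4, which encodes the gap junction protein connexin 37, was at 0 and 0.0486 TPM on DLL4 and 0 and 0 on IgG in NKO cells, against 6.42 and 4.27 on DLL4 and 0 and 0 on IgG in NT cells. SEMA3G, a secreted semaphorin of arterial endothelium, was at 0.0491 and 0.243 TPM on DLL4 and 0.0594 and 0.112 on IgG in NKO cells, against 4.100 and 4.81 on DLL4 and 0.138 and 0.111 on IgG in NT cells. Only the NT libraries on DLL4 were above 1 TPM for either gene, with the TKO libraries counted as well. Both genes thus passed the expression filter through that group alone. This way of entering the test favours a negative difference, also where they are counted in gene lists below. Their differences were -2.61 ± 0.31 and -2.20 ± 0.28 (limma adjusted p = 0.0028 and 0.0049), which on this scale understate a change from so low a level. With a pseudocount of 0.1 they were not called (adjusted p = 0.082 and 0.099; over the alternatives 0.00086 to 0.082 and 0.00074 to 0.099). SEMA3G, DEPP1, SLC45A4, CCN2, RGS4, ESM1 and APLN were named after their values were seen.

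FLT1, a receptor that binds VEGF and limits sprouting, was induced in both lines. In NKO cells FLT1 was at 42.5 and 40.5 TPM on DLL4 and 29.8 and 25.1 on IgG, against 82.6 and 73.6 on DLL4 and 26.1 and 23.9 on IgG in NT cells. The lines overlapped on IgG and not on DLL4, with a change of 0.58 in NKO and 1.60 in NT cells and a difference of -1.02 ± 0.15 (limma adjusted p = 0.014). IGFBP3, a secreted carrier of insulin-like growth factors, differed by -1.33 ± 0.22 (limma adjusted p = 0.026), with a change of 0.54 in NKO and 1.87 in NT cells. The list of 32 arterial genes, 26 of them tested, held 8 genes called negative, which are EFNB2, GJA4, SEMA3G, DLL4, HEY2, SLC45A4 (-1.61), DEPP1 (-1.47) and IGFBP3. It held 1 called positive, BMX, and over all tested genes 0.571% were called negative and 0.316% positive. The list was chosen with earlier results of these data known, so its counts and median are a description and not a test. Its median difference was -0.80, against -0.0035 over all tested genes, and its median line difference on IgG was 0.00. The calls of EFNB2, DLL4, HEY2, GJA4 and SEMA3G held without each of the 8 libraries in turn. Leaving out a library took the limma adjusted p past 0.05 for FLT1 without NKO DLL4 1, NKO DLL4 2, NT DLL4 2 or NT IgG 3 (up to 0.084), IGFBP3 with any library left out but NKO IgG 1 and NT IgG 2 (up to 0.12) and SLC45A4 with any library left out but NKO DLL4 2 (up to 0.11). Among the others it did so for DEPP1 with any library left out but NKO IgG 2 and NT DLL4 3 (up to 0.1).

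**Figure D2:**
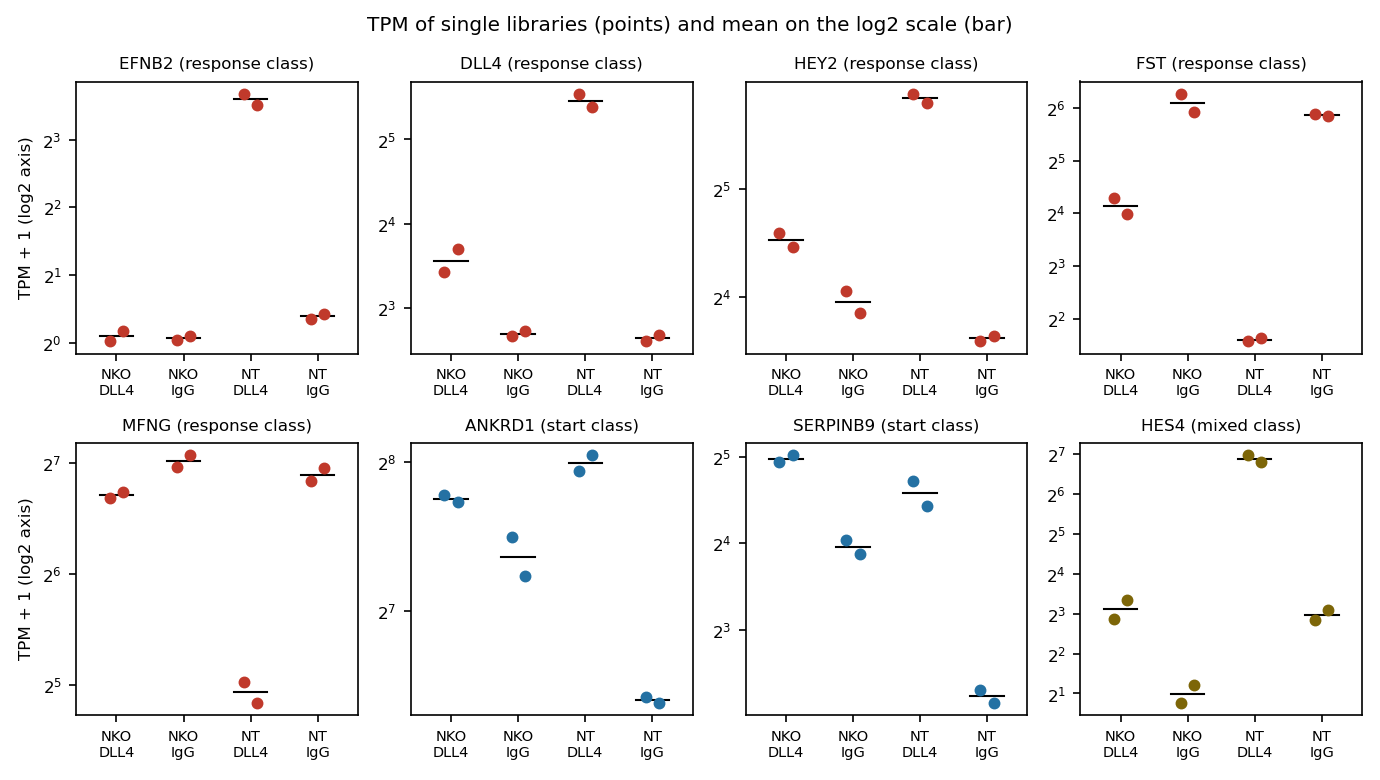
TPM + 1 of single libraries (points, log2 axis, a scale of its own in each panel) and their mean on the log2 scale (bars) for 8 called genes in NKO cells on DLL4 and IgG and NT cells on DLL4 and IgG. EFNB2, DLL4, HEY2, FST and MFNG have no called line difference on IgG and a called one on DLL4, ANKRD1 and SERPINB9 have a called one on IgG, and HES4 is lower in NKO cells on both coatings. On IgG EFNB2 is under 1 TPM in both lines, where this scale shows little of a line difference.

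Other response-class genes with a negative difference have varied roles. IL33 encodes a nuclear cytokine of endothelial cells. In NKO cells IL33 was at 1.77 and 1.73 TPM on DLL4 and 0.657 and 0.288 on IgG, against 14.5 and 14.1 on DLL4 and 0.304 and 0.333 on IgG in NT cells. The change was 0.91 in NKO and 3.54 in NT cells, called in NT cells only, with a difference of -2.63 ± 0.29 (limma adjusted p = 0.0024). MASP1, a protease of the lectin complement pathway, was at 3.48 and 4.93 TPM on DLL4 and 1.35 and 1.795 on IgG in NKO cells, against 26.1 and 25.02 on DLL4 and 1.68 and 1.42 on IgG in NT cells. Its difference was -2.38 ± 0.38 (limma adjusted p = 0.019). The call of IL33 held without each of the 8 libraries in turn. With a library left out, the limma adjusted p passed 0.05 for MASP1 with any library left out but NKO DLL4 2 (up to 0.094). MASP1 was also not called with a pseudocount of 0.1 (limma adjusted p = 0.12).

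SLC46A3, a lysosomal membrane transporter (chromosome 13, 28700064 to 28718970, minus strand), had the largest change in NKO cells of the class. In NKO cells SLC46A3 was at 12.4 and 13.4 TPM on DLL4 and 0.844 and 0.721 on IgG, against 68.7 and 61.9 on DLL4 and 0.845 and 0.846 on IgG in NT cells. On IgG all 4 libraries were within 0.721 to 0.846 TPM, and on DLL4 every library was at 12.4 TPM or more. The change was 2.96 in NKO and 5.16 in NT cells, and the difference -2.20 ± 0.17 (limma adjusted p = 0.0004). The symbol AC009093.8, a transcribed pseudogene in GENCODE 29, had a response of 0.03 in NKO and 2.70 in NT cells (difference -2.67 ± 0.26, limma adjusted p = 0.001), and reads of a similar gene could be counted there. The calls of SLC46A3 and AC009093.8 held without each of the 8 libraries in turn.

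The cyclin-dependent kinase inhibitor CDKN2B was called under all 17 alternatives tried. In NKO cells CDKN2B was at 13.5 and 15.8 TPM on DLL4 and 9.99 and 9.79 on IgG, against 45.4 and 42.7 on DLL4 and 10.03 and 11.8 on IgG in NT cells. Its level on DLL4 in NKO cells lay between the IgG levels and the DLL4 level of NT cells, and the difference was -1.40 ± 0.17 (limma adjusted p = 0.0028). CDKN1A, the p21 inhibitor, differed by -0.65 ± 0.12 (limma adjusted p = 0.043). F2R, the thrombin receptor PAR1, was abundant. In NKO cells F2R was at 242 and 256 TPM on DLL4 and 143 and 134 on IgG, against 519 and 468 on DLL4 and 123 and 119 on IgG in NT cells. It had a response of 0.84 in NKO and 2.02 in NT cells, a difference of -1.17 ± 0.13 (limma adjusted p = 0.0026). The calls of CDKN2B and F2R held without each of the 8 libraries in turn. Leaving out a library took the limma adjusted p past 0.05 for CDKN1A with any library left out but NKO DLL4 2 and NKO IgG 1 (up to 0.18).

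Response-class genes with a positive difference fell on DLL4 in NT cells and had a smaller change in NKO cells. FST encodes follistatin, a secreted protein that binds activins (chromosome 5, 53480409 to 53487134, plus strand). In NKO cells FST was at 18.6 and 14.8 TPM on DLL4 and 76.3 and 60.02 on IgG, against 1.97 and 2.08 on DLL4 and 58.5 and 56.9 on IgG in NT cells. Both NKO libraries were above both NT libraries on either coating, narrowly so on IgG. The change was -1.97 in NKO and -4.28 in NT cells, a difference of 2.31 ± 0.21 (limma adjusted p = 0.00084), and the fall in NKO cells was itself called (adjusted p = 0.00028). FSTL3, a relative of follistatin, had a difference of the other sign, -0.97 ± 0.17 (limma adjusted p = 0.03), and rose in NT cells. The call of FST held without each of the 8 libraries in turn. FSTL3 lost the limma call with any library left out but NKO IgG 2.

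MFNG, the fringe glycosyltransferase that adds sugars to Notch receptors and alters which ligands they answer to (chromosome 22, 37469063 to 37486401, minus strand), fell in NT cells, and its change in NKO cells was not called. In NKO cells MFNG was at 102 and 106 TPM on DLL4 and 124 and 133 on IgG, against 31.5 and 27.6 on DLL4 and 113 and 123 on IgG in NT cells. The change was -0.31 in NKO and -1.96 in NT cells, called in NT cells only, and the difference was 1.66 ± 0.13 (limma adjusted p = 0.0004). ESM1, which encodes endocan and marks tip cells, was at 159 and 125 TPM on DLL4 and 323 and 252 on IgG in NKO cells, against 58.9 and 58.1 on DLL4 and 242 and 231 on IgG in NT cells. It fell in both lines, less in NKO, with a difference of 0.98 ± 0.18 (limma adjusted p = 0.038). ADM, the vasodilator peptide adrenomedullin, had a response of -0.46 in NKO and -1.38 in NT cells, a difference of 0.92 ± 0.15 (limma adjusted p = 0.021). The call of MFNG held without each of the 8 libraries in turn. With a library left out, the limma adjusted p passed 0.05 for ESM1 with any library left out but NKO DLL4 2 and NKO IgG 1 (up to 0.13) and ADM with any library left out but NKO DLL4 1 and NKO IgG 2 (up to 0.1).

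Some of the other genes with a positive difference are less studied in endothelium. MYEOV was at 90.8 and 70.6 TPM on DLL4 and 133 and 114 on IgG in NKO cells, against 36.1 and 30.5 on DLL4 and 113 and 127 on IgG in NT cells. Its difference was 1.21 ± 0.19 (limma adjusted p = 0.016). BCOR, a corepressor of BCL6, had a response of 0.01 in NKO and -1.27 in NT cells, a difference of 1.28 ± 0.22 (limma adjusted p = 0.03). TMEM158 and the keratin gene KRT80 differed by 1.39 and 1.19. The metallothionein gene MT1X, which shares sequence with its paralogs, fell by 1.68 in NT cells, with a change of -0.56 in NKO cells and a difference of 1.11 ± 0.17 (limma adjusted p = 0.016). Leaving out a library took the limma adjusted p past 0.05 for MYEOV without NKO DLL4 1, NKO IgG 2, NT DLL4 3 or NT IgG 3 (up to 0.088), BCOR with any library left out but NT IgG 2 (up to 0.13) and TMEM158 with any library left out but NKO DLL4 2 (up to 0.18). Likewise this applied to KRT80 with any library left out but NKO IgG 2 (up to 0.18) and MT1X with any library left out but NKO IgG 1 and NT DLL4 3 (up to 0.086).

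Start-class genes had another level on IgG and, in 21 of 29, no called line difference on DLL4. ANKRD1, an ankyrin repeat protein of the nucleus and a target of the YAP coactivator (chromosome 10, 90912096 to 90921276, minus strand), was of this kind. In NKO cells ANKRD1 was at 218 and 211 TPM on DLL4 and 179 and 149 on IgG, against 244 and 263 on DLL4 and 84.5 and 82.4 on IgG in NT cells. On IgG both NKO libraries were above both NT libraries, and on DLL4 both were below. The line difference was -0.24 on DLL4 (limma adjusted p = 0.078) and 0.96 on IgG (adjusted p = 4.9e-05), and the difference of responses was -1.20 ± 0.12 (adjusted p = 0.0011). The call of ANKRD1 held without each of the 8 libraries in turn.

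SERPINB9, an intracellular inhibitor of granzyme B (chromosome 6, 2887266 to 2903280, minus strand), was higher in NKO cells on both coatings. In NKO cells SERPINB9 was at 29.6 and 31.4 TPM on DLL4 and 15.5 and 13.7 on IgG, against 25.4 and 20.7 on DLL4 and 3.95 and 3.46 on IgG in NT cells. The line difference was 0.40 on DLL4 and 1.73 on IgG, both called, and DLL4 changed it by 1.02 in NKO and 2.35 in NT cells (difference -1.33 ± 0.17, limma adjusted p = 0.0039). Thrombospondin 1, THBS1, is a matrix protein that restrains angiogenesis. In NKO cells THBS1 was at 465 and 517 TPM on DLL4 and 328 and 242 on IgG, against 699.9 and 603 on DLL4 and 119 and 127 on IgG in NT cells. Its difference was -1.60 ± 0.31 (limma adjusted p = 0.047). The call of SERPINB9 held without each of the 8 libraries in turn. With a library left out, the limma adjusted p passed 0.05 for THBS1 without any one of the 8 (0.0585 to 0.2).

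Other genes higher on IgG in NKO cells encode matrix, junction and signalling proteins. The collagen gene COL5A1 had line differences of -0.16 on DLL4 and 0.89 on IgG. CCN2, a matricellular growth factor, had -0.06 and 0.68, RGS4, a brake on G protein signalling, 0.00 and 1.19, and the angiomotin gene AMOTL2 -0.25 and 0.62. In these 4 and in the scramblase gene PLSCR4 (0.09 and 1.42) the line difference was called on IgG and not on DLL4. Their differences of responses were -1.05, -0.73, -1.19, -0.87 and -1.33. Leaving out a library took the limma adjusted p past 0.05 for COL5A1 without NKO DLL4 1, NT DLL4 2 or NT IgG 2 (up to 0.071), CCN2 with any library left out but NKO IgG 2 (up to 0.18) and RGS4 with any library left out but NKO IgG 2 (up to 0.17). This was also true of AMOTL2 with any library left out but NKO IgG 2 and NT DLL4 3 (up to 0.13) and PLSCR4 without any one of the 8 (0.0501 to 0.2).

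The reverse held for genes lower on IgG in NKO cells. CA2, a carbonic anhydrase, was at 2.196 and 2.901 TPM on DLL4 and 5.84 and 7.26 on IgG in NKO cells, against 3.21 and 3.52 on DLL4 and 33.1 and 28.1 on IgG in NT cells. The line difference on DLL4, -0.31, was not called, and the difference of responses was 1.76 ± 0.35 (limma adjusted p = 0.047). PTPN7, a tyrosine phosphatase, was at 1.91 and 2.504 TPM on DLL4 and 5.97 and 5.37 on IgG in NKO cells, against 1.55 and 2.06 on DLL4 and 14.3 and 20.5 on IgG in NT cells. Its difference was 1.64 ± 0.31 (limma adjusted p = 0.042). CSF3, the granulocyte colony-stimulating factor gene, was at 18.8 and 20.6 TPM on DLL4 and 29.1 and 26.8 on IgG in NKO cells, against 14.3 and 14.2 on DLL4 and 45.9 and 44.2 on IgG in NT cells. Its 4 libraries on IgG separated by line, with a difference of 1.10 ± 0.22 (limma adjusted p = 0.047). CATSPER1, LNP1 and the pseudogene symbol AC116533.1 differed by 1.27, 1.26 and 1.70. With a library left out, the limma adjusted p passed 0.05 for CA2 without any one of the 8 (0.0815 to 0.18), PTPN7 without any one of the 8 (0.0583 to 0.17) and CSF3 without any one of the 8 (0.0966 to 0.17). Likewise this applied to CATSPER1 without any one of the 8 (0.06 to 0.16), LNP1 without any one of the 8 (0.0598 to 0.14) and AC116533.1 with any library left out but NT DLL4 3 (up to 0.14).

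In a few start-class genes the lines differed strongly on both coatings. SH2D2A, an adaptor protein of lymphocytes, was at 3.52 and 3.33 TPM on DLL4 and 8.91 and 8.799 on IgG in NKO cells, against 9.304 and 10.7 on DLL4 and 50.7 and 58.3 on IgG in NT cells. DLL4 changed it by -1.15 in NKO and -2.33 in NT cells (difference 1.18 ± 0.18, limma adjusted p = 0.016). COLEC10, a collectin, was at 0.663 and 0.663 TPM on DLL4 and 0.561 and 0.802 on IgG in NKO cells, against 17.7 and 13.8 on DLL4 and 43.2 and 41.6 on IgG in NT cells. A gene under 1 TPM has little room to fall on the log2(TPM + 1) scale, so its difference of 1.37 ± 0.24 (limma adjusted p = 0.03) rests on the values of NT cells. G0S2, an inhibitor of the lipase ATGL, was at 20.8 and 15.7 TPM on DLL4 and 44.2 and 41.9 on IgG in NKO cells, against 0 and 0.0773 on DLL4 and 0 and 0 on IgG in NT cells. It is the converse, a gene under 1 TPM in all 4 NT libraries whose difference of -1.26 ± 0.24 (limma adjusted p = 0.042) is the fall in NKO cells. SH2D2A lost the limma call without NKO DLL4 1, NT DLL4 2 or NT IgG 3. COLEC10 lost it with any library left out but NKO IgG 2, and G0S2 whichever of the 8 was left out. With a pseudocount of 0.1 COLEC10 and G0S2 were not called (limma adjusted p = 0.34 and 0.28).

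**Figure D3:**
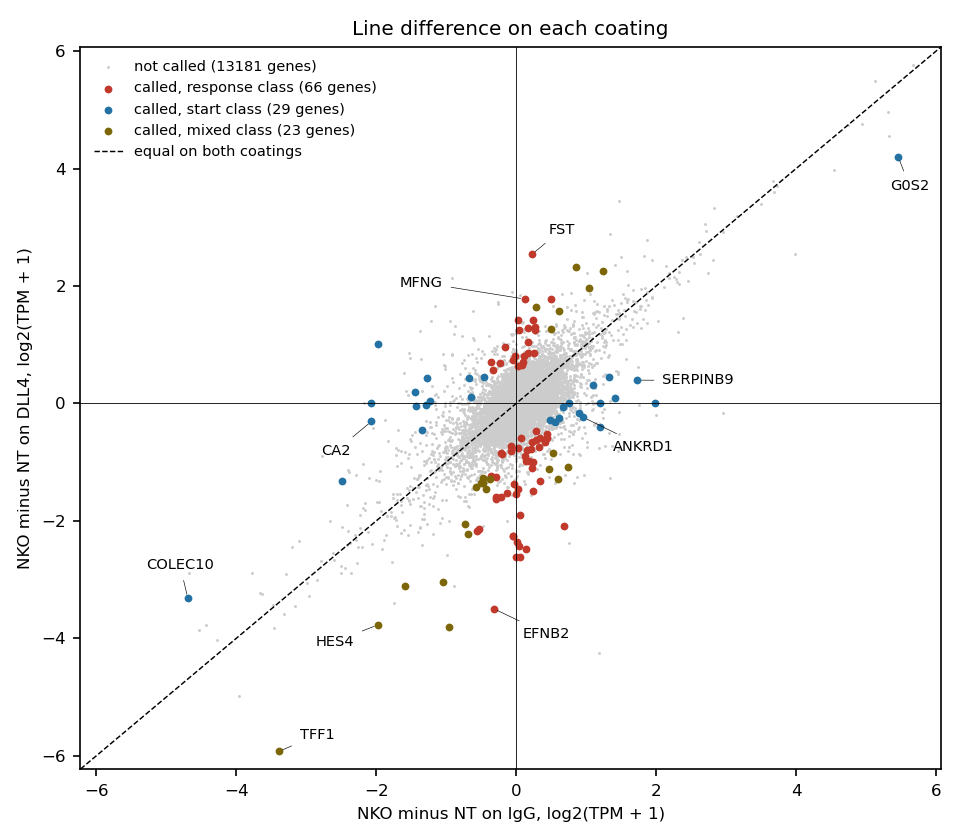
Difference between the lines, NKO minus NT, on IgG (horizontal) and on DLL4 (vertical), in log2(TPM + 1), for 13299 genes, with colours as in the plot of responses; the dashed line marks an equal line difference on both coatings. Response-class genes lie near the vertical axis, most start-class genes near the horizontal axis, and HES4 and TFF1 of the mixed class below the dashed line at the lower left.

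Mixed-class genes differed in response and in IgG level together, 13 of the 17 with a negative difference being lower on IgG in NKO cells. HES4, a repressor of the HES family and a Notch target (chromosome 1, 998962 to 1000172, minus strand), was one. In NKO cells HES4 was at 6.28 and 9.19 TPM on DLL4 and 0.706 and 1.32 on IgG, against 123 and 110.0 on DLL4 and 6.14 and 7.56 on IgG in NT cells. Both coatings separated the lines, and DLL4 raised HES4 in each. The line difference was -3.77 on DLL4 and -1.98 on IgG, the change 2.12 in NKO and 3.91 in NT cells, and the difference -1.79 ± 0.27 (limma adjusted p = 0.013). TFF1, a secreted trefoil peptide, had the largest line difference on DLL4 among called genes, -5.93. In NKO cells TFF1 was at 5.09 and 6.15 TPM on DLL4 and 0.852 and 0.604 on IgG, against 395 and 405 on DLL4 and 20.04 and 14.6 on IgG in NT cells. Its difference was -2.53 ± 0.43 (limma adjusted p = 0.026). With a library left out, the limma adjusted p passed 0.05 for HES4 without NKO DLL4 1, NT DLL4 2 or NT IgG 2 (up to 0.084) and TFF1 without any one of the 8 (0.0596 to 0.12). HES4 and TFF1 were also not called with a pseudocount of 0.1 (limma adjusted p = 0.18 and 0.18; over the alternatives 0.0059 to 0.18 and 0.0024 to 0.18).

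ACP5, the tartrate-resistant acid phosphatase, was at 1.19 and 0.931 TPM on DLL4 and 0.402 and 0.215 on IgG in NKO cells, against 33.8 and 22.8 on DLL4 and 1.702 and 1.41 on IgG in NT cells. The difference was -2.84 ± 0.28 (limma adjusted p = 0.0011). SNAI2, the transcription factor Slug of mesenchymal transition, was at 1.51 and 1.73 TPM on DLL4 and 1.21 and 0.768 on IgG in NKO cells, against 21.4 and 21.6 on DLL4 and 5.09 and 4.83 on IgG in NT cells. It differed by -1.52 ± 0.27 (limma adjusted p = 0.033). The proton pump subunit ATP6V0D2 and LURAP1L had differences of -1.99 and -1.54 and were also lower on IgG in NKO cells. The call of ACP5 held without each of the 8 libraries in turn. With a pseudocount of 0.1 SNAI2, ATP6V0D2 and LURAP1L were not called (limma adjusted p = 0.17, 0.21 and 0.16). Leaving out a library took the limma adjusted p past 0.05 for SNAI2 with any library left out but NKO IgG 2 (up to 0.13), ATP6V0D2 without NKO DLL4 1, NT DLL4 2, NT DLL4 3 or NT IgG 3 (up to 0.074) and LURAP1L with any library left out but NKO DLL4 2 (up to 0.12).

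In other mixed-class genes NKO cells started higher and still ended lower. The class rule brings this about where the higher start is called and the difference negative. SLC1A4, a neutral amino acid transporter, was at 6.39 and 7.27 TPM on DLL4 and 5.201 and 4.65 on IgG in NKO cells, against 18.3 and 18.02 on DLL4 and 2.98 and 2.87 on IgG in NT cells. The line difference was -1.29 on DLL4 and 0.59 on IgG, both called, with a difference of -1.89 ± 0.15 (limma adjusted p = 0.0004). ENC1, an actin-associated protein, had -1.12 and 0.46 (difference -1.59 ± 0.16, limma adjusted p = 0.0011), and the pseudogene symbol CASP17P -1.08 and 0.74 (difference -1.82 ± 0.21, adjusted p = 0.0026). The calls of SLC1A4, ENC1 and CASP17P held without each of the 8 libraries in turn.

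The 6 mixed-class genes with a positive difference were all higher in NKO cells on IgG. By arithmetic, a positive difference then puts the lines further apart on DLL4. MT2A, a metallothionein that binds zinc and copper (chromosome 16, 56608199 to 56609497, plus strand), had the smallest adjusted p of the difference. In NKO cells MT2A was at 2026 and 2192 TPM on DLL4 and 3977 and 4329 on IgG, against 678 and 673 on DLL4 and 3354 and 3481 on IgG in NT cells. It fell in both lines, by 0.98 in NKO and 2.34 in NT cells, with a difference of 1.36 ± 0.09 (limma adjusted p = 0.00017). The tip cell peptide APLN was high in NKO cells. In NKO cells APLN was at 547 and 508 TPM on DLL4 and 674 and 608 on IgG, against 109.9 and 108 on DLL4 and 261 and 282 on IgG in NT cells. It differed by 1.03 ± 0.19 (limma adjusted p = 0.037). The tyrosine kinase BMX differed by 0.92, SYCE1L by 1.47 and the replication helicase subunit MCM2 by 0.77. The call of MT2A held without each of the 8 libraries in turn. APLN, BMX and MCM2 lost the limma call whichever of the 8 libraries was left out. SYCE1L lost it without NKO DLL4 1 only.

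TGGGAA and its reverse complement TTCCCA are the core letters of the sequence that RBPJ binds. Promoters were looked at for HES4, HEY2, SEMA3G, FST, EFNB2 and DLL4, picked by name among the called genes. The letters stood in those of HES4, HEY2 and SEMA3G, which were induced less in NKO cells, and of FST, which fell less. They are not particular to these genes. Windows of other called genes held them too, as did 21.7% of windows of all tested genes. For the genes with a match, the 250 bases before the RefSeq start site (GRCh38.p14) are shown, 5′ to 3′ on the gene's strand, with matches in capitals.
HES4 (chr1:1000098-1000347, minus strand): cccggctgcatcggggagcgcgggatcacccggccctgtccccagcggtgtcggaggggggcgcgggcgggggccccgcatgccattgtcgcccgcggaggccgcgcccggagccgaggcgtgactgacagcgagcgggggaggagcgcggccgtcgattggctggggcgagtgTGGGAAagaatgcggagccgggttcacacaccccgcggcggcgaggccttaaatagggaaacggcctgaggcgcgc
HEY2 (chr6:125749382-125749631, plus strand): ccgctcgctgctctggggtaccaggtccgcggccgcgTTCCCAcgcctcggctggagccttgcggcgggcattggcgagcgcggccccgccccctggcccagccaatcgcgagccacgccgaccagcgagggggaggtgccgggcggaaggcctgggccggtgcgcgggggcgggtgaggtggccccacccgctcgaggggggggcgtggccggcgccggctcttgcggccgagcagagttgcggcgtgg
SEMA3G (chr3:52445104-52445353, minus strand): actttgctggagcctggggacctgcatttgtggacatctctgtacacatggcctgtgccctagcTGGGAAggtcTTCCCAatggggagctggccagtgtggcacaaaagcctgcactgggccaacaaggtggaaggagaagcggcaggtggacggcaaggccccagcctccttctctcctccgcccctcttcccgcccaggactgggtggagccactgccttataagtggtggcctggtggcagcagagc
FST (chr5:53480379-53480628, plus strand): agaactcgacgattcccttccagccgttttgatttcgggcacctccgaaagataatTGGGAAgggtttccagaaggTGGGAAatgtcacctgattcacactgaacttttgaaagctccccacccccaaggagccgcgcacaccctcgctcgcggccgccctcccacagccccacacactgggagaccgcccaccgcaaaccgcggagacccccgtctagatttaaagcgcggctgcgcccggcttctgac
The match of HES4 begins at base -76 from the start site, that of HEY2 at -213, those of SEMA3G at -186 and -176 and those of FST at -194 and -174. A second HEY2 match begins at -3 and runs past the start site, so only its first 3 bases are among those shown, in lower case. The windows of EFNB2 and DLL4 hold no match.

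Over windows of 300 bases that also take in the first 50 transcribed bases, the 6 letters on either strand stood in 25.6% of 82 windows of genes called negative and 29.4% of 34 windows of genes called positive, against 21.7% of 14171 windows of tested genes. The letters CACGTG, an E-box, stood in 2.44%, 23.5% and 9.24% of the same windows, which are 2, 8 and 1309 windows. CACNAG or CTNGTG, an N-box of HES repressors, stood in 36.6%, 35.3% and 35.4%. The motifs share letters but no 6-letter run fits more than 1 of them. Windows were held for 57 of the 76 and 24 of the 42 called genes, matched by symbol, so a gene can enter with more than 1 window. A match is a run of letters and not a measured site.

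Most genes with a line difference on IgG had no called difference of responses. Of the 1418 genes called on IgG, 1366 were not called in the difference and 52 were, and 66 were called in the difference alone. Over all 13299 tested genes 0.887% were called in the difference, so a lack of a call is the rule in any set. The IgG libraries enter both quantities, and this overlap is a description with no test. For 431 of the 1418 (30.39%), the unadjusted p of the difference was at least 0.5 and its size at most 0.25. The same share over all tested genes was not computed. Of the 431 genes, 222 were lower and 209 higher in NKO cells. POSTN, the matrix protein periostin, had the largest line difference among them. In NKO cells POSTN was at 70.9 and 77.6 TPM on DLL4 and 64.1 and 59.5 on IgG, against 0.284 and 0.477 on DLL4 and 0.394 and 0.085 on IgG in NT cells. The line difference on IgG was 5.67 (limma adjusted p = 5.2e-09), and the difference of responses 0.10 (95% interval -0.37 to 0.56).

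FABP5, a fatty acid carrier, was at 29.7 and 39.2 TPM on DLL4 and 22.5 and 32.7 on IgG in NKO cells, against 0.537 and 0.108 on DLL4 and 0.0982 and 0 on IgG in NT cells. Its difference was 0.00 (95% interval -0.79 to 0.79), an interval that still allows a sizeable change. AEBP1, a matrix-associated carboxypeptidase-like protein, and the ribosomal protein gene RPL39L had line differences on IgG of 3.69 and 3.50 and differences of -0.09 (95% interval -0.85 to 0.67) and -0.09 (95% interval -0.55 to 0.37). Among genes lower in NKO cells, CELSR1, a cadherin of planar polarity, and the ankyrin gene ANK2 had line differences of -2.85 and -2.61 and differences of -0.15 (95% interval -0.79 to 0.49) and 0.06 (95% interval -0.74 to 0.85).

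Of 26 Notch target genes listed, 22 were tested. In the difference 6 were called negative (EFNB2, GJA4, DLL4, HES4, HEY2 and FLT1) and none positive, against 0.571% and 0.316% of all tested genes. As this list was chosen with earlier results of these data known, its counts and median are a description and not a test. The median difference of the list was -0.75, against -0.0035 over all tested genes, and 1 of the 22 was called higher and 6 lower on IgG, against 4.92% and 5.74% of all tested genes. HES1, the best known target, had a difference of the other sign that was not called. In NKO cells HES1 was at 51.8 and 63.5 TPM on DLL4 and 19.8 and 25.002 on IgG, against 81.2 and 78.9 on DLL4 and 40.7 and 42.6 on IgG in NT cells. It was lower in NKO cells on both coatings, with line differences of -0.47 on DLL4 and -0.87 on IgG, both called. Its change was 1.33 in NKO and 0.93 in NT cells, and the difference of 0.40 ± 0.17 was of positive sign and not called (limma adjusted p = 0.36).

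HEY1 had a difference of -1.07 ± 0.30 at levels of 1.53 to 2.52 TPM in NKO and 1.91 to 7.05 TPM in NT cells, not called (limma adjusted p = 0.16). UNC5B, a netrin receptor, had -1.05 ± 0.24 (adjusted p = 0.086), and JAG1, a Notch ligand, -0.77 ± 0.24 (adjusted p = 0.2). NRARP, a feedback inhibitor of Notch, was at 0.01 (95% interval -0.66 to 0.68), and LFNG, the fringe relative of MFNG, at 0.95 (adjusted p = 0.22). Of 39 tested genes for Notch receptors, ligands and processing, DLL4 was called negative and MFNG positive and the other 37 were not called, with a list median of -0.16. Over all tested genes 0.571% were called negative and 0.316% positive. TSPAN14 was among those not called, at 0.08 (adjusted p = 0.88).

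DNA replication and mitosis genes leaned to one side with few calls. Of 46 tested, 44 had a positive difference, against 49.39% of all tested genes, and 2 were called, MCM2 and MCM7, against 0.316% called positive over all. The median difference was 0.32, against -0.0035 over all tested genes, with a median change on DLL4 of -0.06 in NKO and -0.34 in NT cells, and 13 were called higher and 2 lower in NKO cells on IgG (4.92% and 5.74% of all tested genes). In NKO cells MCM7 was at 158 and 145 TPM on DLL4 and 173 and 165 on IgG, against 87.6 and 77.4 on DLL4 and 136 and 146 on IgG in NT cells. Its difference was 0.61 ± 0.12 (limma adjusted p = 0.044), and that of MCM2 0.77 ± 0.14 (adjusted p = 0.041). CDC6 and CDC20, at 0.66 and 0.56, were not called (adjusted p = 0.072 and 0.059). Leaving out a library took the limma adjusted p past 0.05 for MCM7 without any one of the 8 (0.0723 to 0.17) and MCM2 without any one of the 8 (0.0633 to 0.15).

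Mesenchymal and contractile genes had 7 of 30 tested called negative and none positive, against 0.571% and 0.316% of all tested genes, with a median of -0.39. The 7 were THBS1, SNAI2, ANKRD1, COL5A1, AMOTL2, CCN2 and the tropomyosin gene TPM1 (-0.64), of which 5 are in the start class, and 12 of the 30 were called higher and 2 lower on IgG (4.92% and 5.74% of all tested genes). Smooth muscle markers, whose sums are given above, were at 92.42 to 92.58 TPM on DLL4 and 106.2 to 121.4 on IgG in NKO cells, against 90.49 to 98.38 and 99.8 to 115.3 in NT cells, and their part in this was not tested. Of 34 extracellular matrix genes SPARC (-0.76) and COL18A1 (-0.74) were called negative, with a median of -0.32. TPM1 lost the limma call with any library left out but NKO IgG 1, NKO IgG 2 and NT IgG 3. COL18A1 lost it with any library left out but NT DLL4 3 and NT IgG 3, and SPARC whichever of the 8 was left out.

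The shares of all tested genes to set beside the counts that follow are 0.316% called positive, 0.571% called negative and 12.9% at an unadjusted p under 0.05. Tip cell and angiogenesis genes split, with 3 of 26 called positive (APLN, ESM1 and ADM) and 3 negative (DLL4, IGFBP3 and FLT1) and a median of -0.20. Endothelial identity and junction genes, 32 tested, had no call by limma (8 at an unadjusted p under 0.05) and a median of -0.16. Venous and lymphatic genes, 11 tested, had none either (2 at an unadjusted p under 0.05, median -0.15). Of 30 inflammatory genes IL33 and IRF1 (-1.07) were called negative and CSF3 positive. Of 27 genes of BMP and activin signalling FST was called positive and FSTL3 negative. In the metallothionein list of 7 tested genes MT2A and MT1X were called, and the median of -0.38 has the other sign. With a library left out, the limma adjusted p passed 0.05 for IRF1 with any library left out but NKO DLL4 2 and NT IgG 3 (up to 0.11).

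No gene was called by limma among 41 interferon and antigen presentation genes (median 0.11), 34 amino acid and unfolded protein response genes (0.04) and 24 cholesterol synthesis genes (-0.24), and 5, 9 and 5 of them had an unadjusted p under 0.05, against 1715 of all 13299 (12.9%). The counts that follow stand against 0.571% called negative and 0.316% called positive over all tested genes. Cell cycle inhibitors, cyclins and MYC had 2 of 14 called negative, CDKN2B and CDKN1A, and the 28 p53 targets 1, CDKN1A. Of 23 coagulation and protease genes F2R and MASP1 were called negative. Of 47 tested genes at coronary artery disease loci CDKN2B and FLT1 were called negative and none positive, with a median of -0.29.

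**Figure D4:**
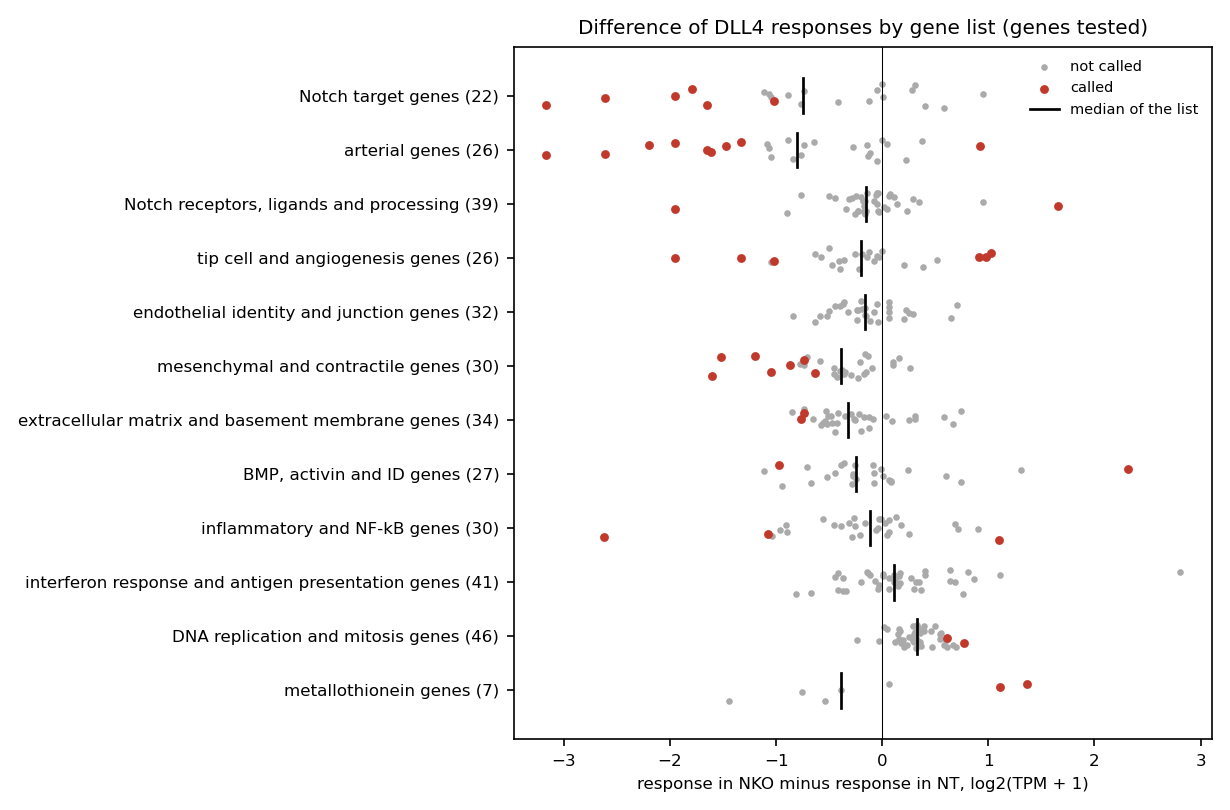
Difference of DLL4 responses, NKO minus NT, in log2(TPM + 1), for every tested gene (point) of 12 gene lists, with the number tested in brackets, called genes in red and the list median as a bar. Notch target and arterial genes have medians of -0.75 and -0.80, and 44 of 46 replication and mitosis genes lie to the right of 0. Lists share genes, and EFNB2, GJA4, DLL4 and HEY2 are in both the Notch target and the arterial list.

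The TKO line gives a second comparison for the NKO response. The NKO response differed from the TKO response in 20 of 13299 genes (0.15%), and that comparison shares the NKO libraries with the one above. For EFNB2 the change on DLL4 was 0.04 in NKO, 2.27 in TKO and 3.21 in NT cells, and NKO minus TKO was -2.23 ± 0.27 (limma adjusted p = 0.01). FST had a response of -1.97 in NKO, -3.35 in TKO and -4.28 in NT cells, with NKO minus TKO at 1.38 ± 0.21 (limma adjusted p = 0.038). MT2A fell by 0.98 in NKO, 2.09 in TKO and 2.34 in NT cells, with NKO minus TKO at 1.12 ± 0.09 (adjusted p = 0.0013). IRF1 and CASP17P were also called, at -1.09 and -1.58 (adjusted p = 0.049 and 0.017).

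For other genes NKO minus TKO was not called. HEY2 had a response of 0.58 in NKO, 0.93 in TKO and 2.23 in NT cells, and NKO minus TKO was -0.35 ± 0.15 (limma adjusted p = 0.84). MFNG had a response of -0.31 in NKO, 0.02 in TKO and -1.96 in NT cells (NKO minus TKO -0.33 ± 0.13, adjusted p = 0.79). CDKN2B had a response of 0.52 in NKO, 0.37 in TKO and 1.92 in NT cells (NKO minus TKO 0.15 ± 0.17, adjusted p = 1). DLL4 and HES1 were not called, with NKO minus TKO at -1.11 ± 0.18 and -1.03 ± 0.17 (limma adjusted p = 0.061 and 0.062). A p that misses the threshold does not show that the 2 lines respond alike.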

How the data were processed

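Polyadenylated RNA of 12 libraries was measured. The deposited values are TPM per gene symbol, made by the authors. Per the submitters' processing notes, kallisto, edgeR and hg38 were used, with no version, order or annotation given in the sources used here. TPM summed to between 97.5% and 97.71% of the nominal total per library and keep no read numbers, so no counting interval can be given and precision rests on 2 libraries a group. Since TPM are relative, a change in very abundant RNA moves all other values.

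The labels number replicates 1 and 2, the columns of NT and TKO 2 and 3, so a column was assigned to its group and not to a numbered replicate. Genes with at least 1 TPM in at least 2 of the 12 libraries were put on the log2(TPM + 1) scale and fitted in R 4.3.3 by limma 3.58.1, 1 mean per group over all 12 libraries, a variance trend and two-sided moderated tests (6 residual degrees of freedom, 10.8 after moderation), with Benjamini-Hochberg adjustment over all 13299 genes at 0.05. Errors are standard errors of the fit. Data were also simulated for the difference of responses, with independent normal noise at the fitted spread. The fit recovered 76% of 100 genes changed by 1 and 99% of 100 changed by 2 on the log2 scale. There were 8 false calls among the unchanged genes of the 13299. Changed genes were drawn from those with a mean log2(TPM + 1) over 2, so recovery at lower levels, as of GJA4, was not tested. Positions and biotypes are from GENCODE 29, promoters from RefSeq (GRCh38.p14).

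The genes described and the lists were chosen with earlier results of these data known, and lists were given no test. The naming rule took NOTCH1, TSPAN14, the Notch targets, up to 15 called genes per direction and 10 per class with the largest difference at a group mean of at least 5 TPM, 6 genes per direction for the genes that start at another level with a like response, and 4 genes per list. Some genes that the rule gave are not reported here. Alternatives were a pseudocount of 0.1, no filter, a mean of at least 5 TPM, median-of-ratios rescaling, quantile normalisation, no variance trend, a fit of the 8 libraries, a replicate block, leaving out each library and, added after seeing the data, leaving out KPNA2P2. The test of NKO against TKO responses was also added then. Figures were drawn with matplotlib 3.10.9.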

Additional observations from a re-analysis of the deposited data

Results flagged for a closer look

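All results here were put forward because the DLL4 responses of NKO and NT cells differed by a test of that difference itself, the limma test with adjustment over 13299 genes, which called 118. The values are the difference, NKO minus NT, in log2(TPM + 1). In the response class the negative differences were EFNB2 -3.17, AC009093.8 -2.67, IL33 -2.63, GJA4 -2.61, MASP1 -2.38, SLC46A3 -2.20, SEMA3G -2.20, DLL4 -1.95, HEY2 -1.65, SLC45A4 -1.61, DEPP1 -1.47, CDKN2B -1.40, IGFBP3 -1.33, F2R -1.17, IRF1 -1.07, FLT1 -1.02, FSTL3 -0.97, COL18A1 -0.74, CDKN1A -0.65 and TPM1 -0.64. The positive ones of that class were FST 2.31, MFNG 1.66, TMEM158 1.39, BCOR 1.28, MYEOV 1.21, KRT80 1.19, MT1X 1.11, ESM1 0.98, ADM 0.92 and MCM7 0.61. In the start class, where the lines differed on IgG, they were THBS1 -1.60, SERPINB9 -1.33, PLSCR4 -1.33, G0S2 -1.26, ANKRD1 -1.20, RGS4 -1.19, COL5A1 -1.05, AMOTL2 -0.87, SPARC -0.76 and CCN2 -0.73, and on the positive side CA2 1.76, AC116533.1 1.70, PTPN7 1.64, COLEC10 1.37, CATSPER1 1.27, LNP1 1.26, SH2D2A 1.18 and CSF3 1.10. In the mixed class they were ACP5 -2.84, TFF1 -2.53, ATP6V0D2 -1.99, SLC1A4 -1.89, CASP17P -1.82, HES4 -1.79, ENC1 -1.59, LURAP1L -1.54 and SNAI2 -1.52, and on the positive side SYCE1L 1.47, MT2A 1.36, APLN 1.03, BMX 0.92 and MCM2 0.77. The libraries whose omission ends a call are named beside each gene above. With 2 libraries a group, no single library could be tested as standing apart within its group.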

How the results depend on the processing

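No named gene that was called changed sign under any of the 17 alternatives. The count of 118 called genes was 136 without KPNA2P2 (45 positive), 86 in a fit of the 8 libraries (28), 140 at a mean of at least 5 TPM (50), 158 with median-of-ratios rescaling (50), 161 with quantile normalisation (54), 87 with no variance trend (26), 88 with a pseudocount of 0.1 (32) and 78 with no filter (23), against 42 positive as reported. Of the 118 genes 111 remained called with median-of-ratios rescaling, 104 with quantile normalisation, 70 with no variance trend and 44 with no filter. The response class of 66 held 43 genes in the fit of the 8 libraries. The start class of 29 held 17 with no filter, 18 with no variance trend and 19 with a pseudocount of 0.1, and the mixed class of 23 held 11 with no filter and 14 by size alone.

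With 1 library left out, 31 to 72 genes were called, 8 to 20 of them positive and 22 to 57 negative. The response class then held 20 to 41, the start class 4 to 15 and the mixed class 4 to 17. For the 133 named genes, the 8 leave-outs gave the same call or absence of a call in 829 instances, lost one in 228 and gained one in 7, and the other alternatives did so in 1040, 102 and 28. The causes were not tested, beyond the fewer libraries in each such fit.

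No label says that a column number marks a shared culture or day, so the numbers were not taken as pairs. Deviations of same-numbered libraries on DLL4 and IgG correlated at -0.00029 in NT and 0.28 in NKO cells, which leaves a shared source for the numbers of NKO cells untested. With the line and column number as a replicate block, 79 genes were called, 27 positive and 52 negative, with 17 in the start class, and 64 of the 118 remained.

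Scaling hardly moved the median of all genes, at -0.0035 as reported, -0.0071 with median-of-ratios rescaling and 0.0117 with quantile normalisation. Depth is unknown, and at 2 libraries a group a difference near 0.6 is at the edge of what was called. The calls of GJA4, SEMA3G, COLEC10 and G0S2, each under 1 TPM in one line, rest on the pseudocount. That of EFNB2, under 1 TPM in NKO cells, held with a pseudocount of 0.1 (limma adjusted p = 0.0043). THBS1, CCN2, SPARC, TMEM158, CA2, PTPN7, CATSPER1 and CSF3 were not called with that pseudocount (limma adjusted p 0.054 to 0.078). Edits to NOTCH1 and its protein were not measured here, and each genotype is 1 line.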
